A study of Bos indicus with 6 samples.

Results

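The genes described here are those of DNA replication and of mitosis in the isthmus, the narrow lower segment of the oviduct, of Nelore beef cows. The 39 genes were chosen by name: 16 act in replication and 23 in mitosis. A row of the table counted as a member when its gene symbol was equal to one of these names. All 23 mitosis genes and 15 of the 16 replication genes had a row, which made 38 of the 24616 rows. CDC45, a part of the replicative helicase, had none under that symbol. The questions asked of them were whether they differed between the groups and how they varied from cow to cow.

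The RNA came from 6 multiparous, healthy cows, 3 per group, with 1 library per cow. All received a progesterone device and 2 mg of estradiol benzoate on day -10, prostaglandin F2α when the device was taken out and again later that day, and GnRH on day 0. Cows of the LF/LCL group (large follicle, large corpus luteum) also had prostaglandin F2α on day -10 and lost the device 42 h before GnRH, whereas cows of the SF/SCL group (small follicle, small corpus luteum) lost it 30 h before GnRH. Isthmus tissue from the side of the corpus luteum was taken on day 4, and the authors sequenced cows from the extremes of their follicle and corpus luteum rankings, so these libraries are not a random sample of either group. The wall was taken whole, with epithelium, connective tissue and muscle.

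A dividing cell first copies its DNA. The MCM proteins are loaded on origins by CDC6 and form the core of the helicase, PCNA is the clamp that holds the polymerases on the template, and ribonucleotide reductase and thymidylate synthase supply the nucleotides. Later, CDK1 with its A and B cyclins drives entry into mitosis, kinetochore and checkpoint proteins watch over the attachment of chromosomes, kinases and kinesins build the spindle and split the cell, and the anaphase-promoting complex ends the process by marking cyclins and securin for destruction. Transcripts of most mitosis genes rise in late S phase and G2 of the cycle, so in a tissue they are commonly read as a sign of cycling cells, while many replication genes are also transcribed in resting cells. In whole tissue, fewer cells of a type and less RNA per cell cannot be told apart.

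The libraries held 23899117 to 34193164 counted reads, with a median of 27155932. Values are normalized counts, that is, reads per gene divided by a size factor of the library, so levels can be set side by side between cows but not between genes, whose lengths were not used. After removal of genes with a mean of 5 or less, or with a mean below their SD over the 6 cows, 15387 genes were tested with limma on log2(normalized count + 1), and log2 fold changes are SF/SCL over LF/LCL on that scale. None of the 15387 genes had a Benjamini-Hochberg adjusted p below 0.05 (0 of 15387, or 0%), and 1333 genes had an unadjusted p below that value. edgeR and limma-voom on the recovered reads also gave 0 genes, with 1307 (8.49%) and 1388 (9.02%) at the unadjusted level, whereas DESeq2 gave 416 (2.70%). SF/SCL cow 489215 stood apart from the other libraries: it was the highest of the 6 cows in 36.7% of all genes tested and the lowest in 35.7%. Without it, limma gave 2827 of 15495 genes (18.2%). Results are therefore given with and without that cow.

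All 38 genes passed the filters. None of them passed an adjusted p of 0.05 between the groups by limma, edgeR or DESeq2, and none had an unadjusted p below 0.05 in limma, where 8.66% of all genes did. The lowest adjusted p among them was 0.611 in limma, for CDC20, and 0.320 in DESeq2, for CDK1. In 26 genes the fold change had the sign of a higher mean in SF/SCL and in 12 the opposite sign, with a median log2 fold change of 0.09, beside -0.02 over all genes tested. That split depended on the scaling, since with library totals in place of size factors it was 19 against 19, and the median of all genes then moved to -0.10. Without cow 489215 it was 18 against 18 of 36 genes. The values of the 3 cows of one group lay wholly apart from those of the other in 2 of the 38 genes, MCM6 and CDK1, where 18.1% of all genes showed such a separation.

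**Figure D1:**
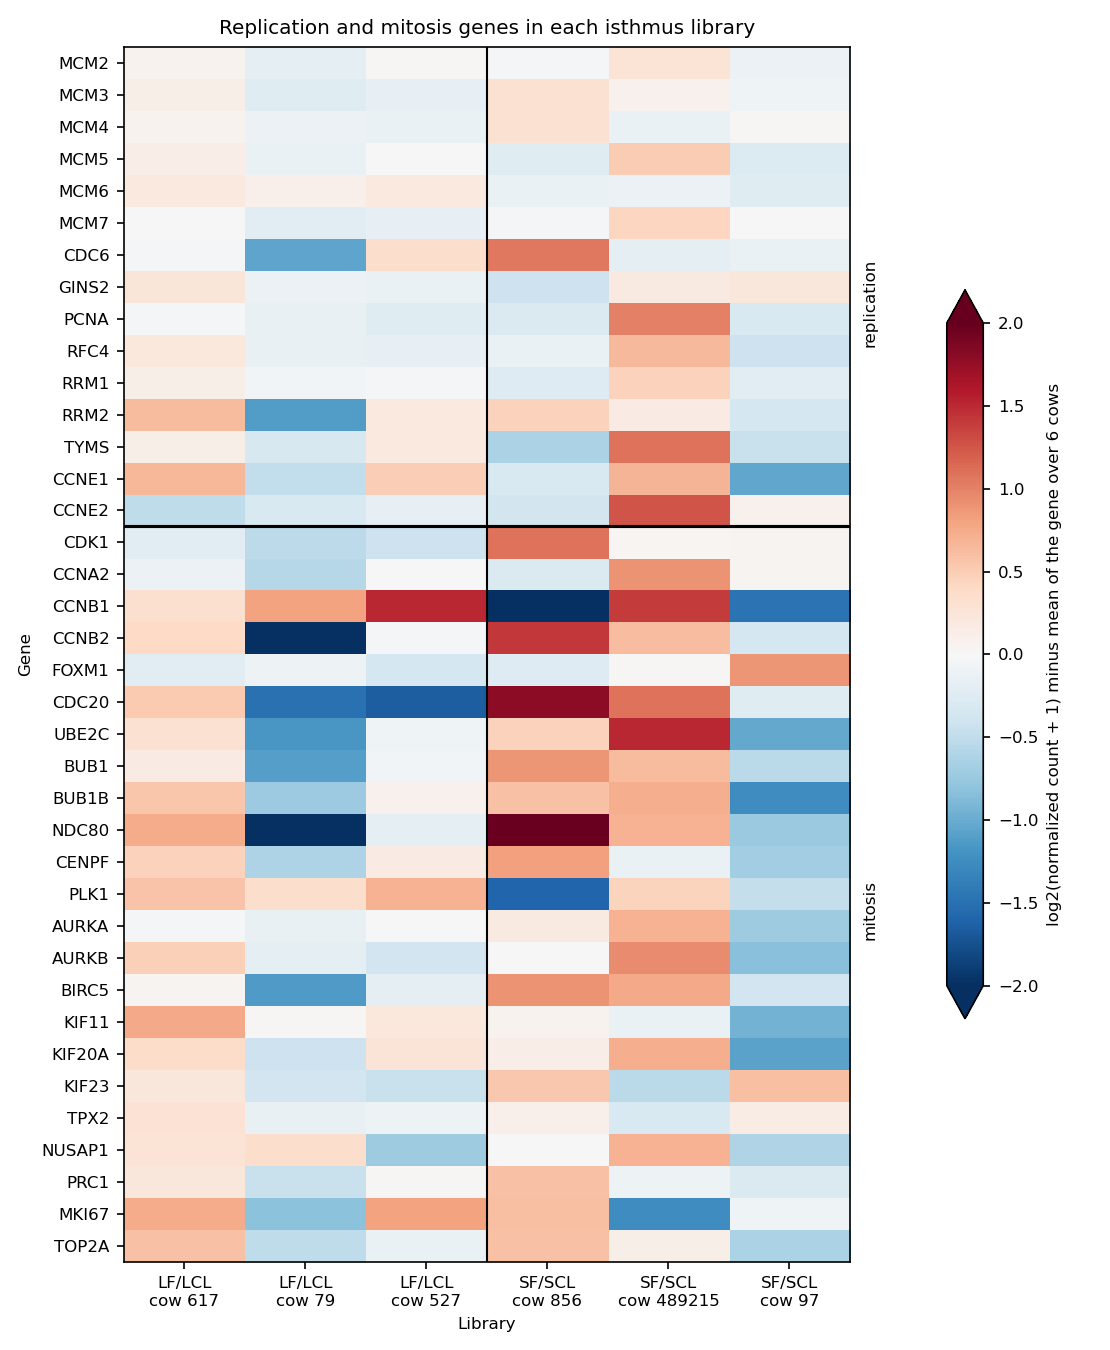
Each cell gives log2(normalized count + 1) of a gene (rows) in a cow (columns) minus the mean of that gene over the 6 cows, with red above and blue below that mean and the colours capped at 2 units. The 15 replication genes are above the thick line and the 23 mitosis genes below it, and the colours are deeper in the mitosis block, where blue prevails in cows 79 and 97.

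No replication gene passed the test between the groups. Their log2 fold changes ran from -0.44 for CCNE1 to 0.65 for CCNE2, with a median of 0.07 and a median SE of 0.34, and none of the 15 intervals excluded 0. Without cow 489215 the median was -0.09 and 0 of the 15 genes were called. Within LF/LCL the highest cow exceeded the lowest by a median factor of 1.27 over the 15 genes, beside 1.26 over all genes tested, so these genes were about as even between the 3 LF/LCL cows as genes in general.

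The 6 MCM subunits assemble into the ring that unwinds DNA. Within LF/LCL their highest cow exceeded the lowest by a factor of 1.07 (MCM6) to 1.28 (MCM3), beside a median of 1.26 over all genes tested. MCM6 had 1227, 1148 and 1231 normalized counts in LF/LCL cows 617, 79 and 527, and 984, 995 and 907 in SF/SCL cows 856, 489215 and 97. Every LF/LCL cow was thus above every SF/SCL cow, as in 8.60% of all genes tested. The means were 1202 ± 46.9 (SD, n = 3) and 962 ± 47.6, a ratio of 1.25, and the log2 fold change was -0.32 (SE 0.17, 95% interval -0.72 to 0.08), with an adjusted p of 0.669 in limma. The difference was as large without cow 489215 (-0.35, adjusted p = 0.0598 in limma), which left it outside the threshold.

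The other subunits overlapped between the groups. MCM7 had means of 2130 ± 185 and 2562 ± 476 (SD, n = 3), with a log2 fold change of 0.25 (95% interval -0.21 to 0.72). MCM2, MCM3, MCM4 and MCM5 had log2 fold changes of 0.07, 0.20, 0.13 and -0.00, with intervals that all covered 0. The subunits of a single complex thus did not share a sign, MCM6 being below 0, MCM5 close to it and the other 4 above it. With library totals in place of size factors, MCM7 also came apart, all SF/SCL cows being above all LF/LCL cows.

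CDC6, the loader of the MCM ring, was scarce. It had 10.5, 4.69 and 14.1 normalized counts in cows 617, 79 and 527 and 23.5, 9.32 and 9.75 in cows 856, 489215 and 97, from a mean of 13 reads per library. The groups overlapped. The log2 fold change was 0.49 (SE 0.60, adjusted p = 0.884 in limma), and its 95% interval from -0.95 to 1.93 covered differences of either sign. GINS2, a subunit of the GINS complex that joins the MCM ring in the active helicase, was also low, with means of 17.6 ± 2.92 and 17.8 ± 4.27 (SD, n = 3).

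PCNA was raised in 1 cow. It had 2000, 1817 and 1707 normalized counts in cows 617, 79 and 527, and 1651, 4083 and 1647 in cows 856, 489215 and 97. Cow 489215 held 2.48 times the mean of the other SF/SCL cows, which lay just under the LF/LCL range. The log2 fold change was 0.28 (SE 0.37, 95% interval -0.62 to 1.18, adjusted p = 0.892 in limma) and turned to -0.16 without cow 489215. RFC4, a subunit of the complex that loads the clamp, was also highest in cow 489215, with 401 normalized counts against 227 to 294 in LF/LCL. Cow 856 was inside that range at 232, and cow 97 was below it at 191.

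The nucleotide supply genes were also highest in cow 489215, except RRM2. RRM1, the large subunit of ribonucleotide reductase, had 4074 normalized counts in that cow, 2475 and 2545 in cows 856 and 97, and 2876 to 3235 in LF/LCL. TYMS, thymidylate synthase, had 1446 in cow 489215, 437 and 499 in the other SF/SCL cows, and 547 to 781 in LF/LCL. In both genes cows 856 and 97 were below the LF/LCL range and cow 489215 above it, so the log2 fold changes of -0.02 and -0.00 averaged over opposite departures. Without cow 489215 they were -0.25 (adjusted p = 0.109 in limma) and -0.55 (adjusted p = 0.0903 in limma).

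RRM2, the small subunit that is made mainly in S phase, followed another order. It had 99.4, 29.1 and 73.8 normalized counts in cows 617, 79 and 527, and 88.9, 71.9 and 49.9 in cows 856, 489215 and 97. The lowest value was that of LF/LCL cow 79, and the groups overlapped widely. Its log2 fold change was 0.19 (SE 0.54, 95% interval -1.11 to 1.48, adjusted p = 0.950 in limma).

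The E cyclins, which activate CDK2 at the start of S phase, had fold changes of opposite sign, but both intervals covered 0. Cow 489215 was the highest in both genes. CCNE2 had 100, 115 and 127 normalized counts in cows 617, 79 and 527 and 111, 342 and 152 in cows 856, 489215 and 97, with a log2 fold change of 0.65 (SE 0.46, 95% interval -0.45 to 1.75, adjusted p = 0.787 in limma). Cow 489215 was again the one far above the rest, at 2.61 times the mean of the other SF/SCL cows, and without it the value was 0.19. CCNE1 had means of 31.6 ± 12.1 and 24.6 ± 15.1 (SD, n = 3), with cow 489215 at 41.3, close to the highest LF/LCL cow at 40.8. Its log2 fold change was -0.44 (SE 0.59, 95% interval -1.85 to 0.98).

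Cow 489215 was the highest of the 6 cows in 9 of the 15 replication genes (60%, beside 36.7% of all genes) and the lowest in 0. With TMM scaling it was the highest in 8 and the lowest in 1, and with library totals the highest in 6 and the lowest in 3. The level of replication genes in a cow, taken as the mean over the 15 genes of the log2 values centred on each gene, was 0.42 in that cow, but 0.12 with library totals. In the other cows it was 0.13 (cow 617), -0.31 (79), 0.02 (527), -0.05 (856) and -0.22 (97). The SF/SCL mean exceeded the LF/LCL mean by 0.10, with a pooled SD of 0.28 between cows, so the difference was within the spread of the cows.

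**Figure D2:**
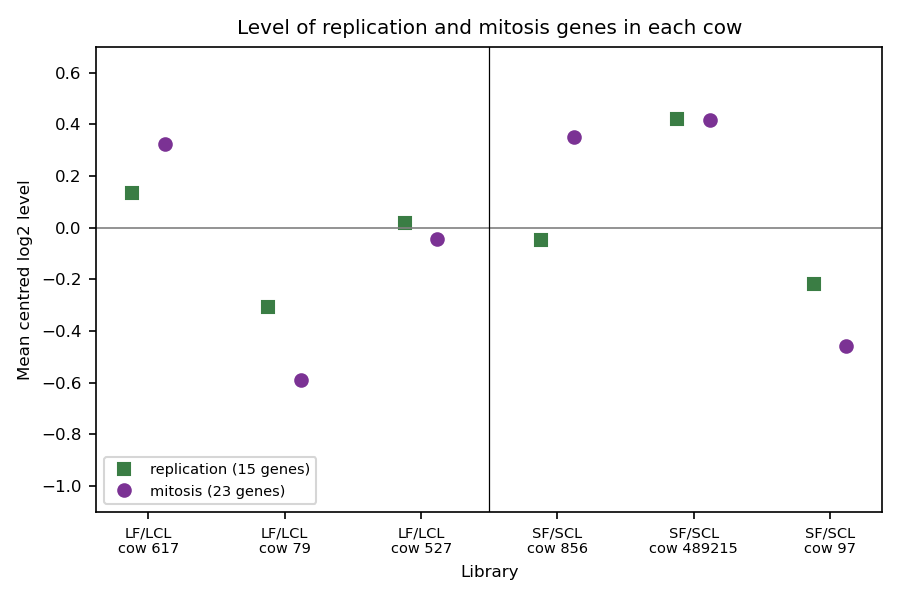
The y axis gives the mean log2 level of the 15 replication genes (squares) and the 23 mitosis genes (circles), each gene centred on its mean over the 6 cows, and the x axis the 6 libraries by group. Mitosis genes span -0.59 (cow 79) to 0.42 (cow 489215), and each group holds a cow near the bottom and at least 1 near the top.

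Mitosis genes varied more between cows of a group than replication genes did. The highest LF/LCL cow exceeded the lowest by a median factor of 2.12 over the 23 genes, beside 1.26 over all genes tested, and the highest SF/SCL cow by 2.71, beside 2.00. Of the 23 genes, 12 had a mean below 100 reads per library, as had 4 of the 15 replication genes, so counting error takes a larger share here, and its part in these factors was not tested.

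The same cows were low in most of these genes. Cow 79 was the lowest LF/LCL cow in 17 of the 23 mitosis genes (73.9%), where it was so in 29.2% of all genes tested, and cow 617 was the highest of them in 16 (69.6%, beside 36.3%). In SF/SCL, cow 97 was the lowest in 15 (65.2%, beside 25.4%). Over both groups cow 856 was the highest in 9 (39.1%, beside 19.3% of all genes) and cow 489215 in 7 (30.4%, below its share of 36.7% of all genes), while cow 79 was so in 0 (beside 9.70%). The order within the groups was not particular to mitosis genes. Of the 15 replication genes, cow 79 was the lowest LF/LCL cow in 10 (66.7%) and cow 617 the highest in 11 (73.3%). Cow 97 was the lowest SF/SCL cow in 8 of them (53.3%). The level over the 23 genes was 0.32, -0.59 and -0.04 in cows 617, 79 and 527 and 0.35, 0.42 and -0.46 in cows 856, 489215 and 97. With library totals it was 0.43 in cow 856 and 0.12 in cow 489215, and cows 79 and 97 were again the lowest. Genes of 1 set are not independent of each other, and these shares describe the 6 libraries.

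Between the groups the mitosis level differed by 0.20, with a pooled SD of 0.47. The log2 fold changes ran from -1.75 for CCNB1 to 1.75 for CDC20, with a median of 0.11 and a median SE of 0.51, and none of the 23 intervals excluded 0. Positive signs were 16 and negative signs 7, or 12 and 11 with library totals. CCNB1 and PLK1 had the lowest fold changes of the 23.

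**Figure D3:**
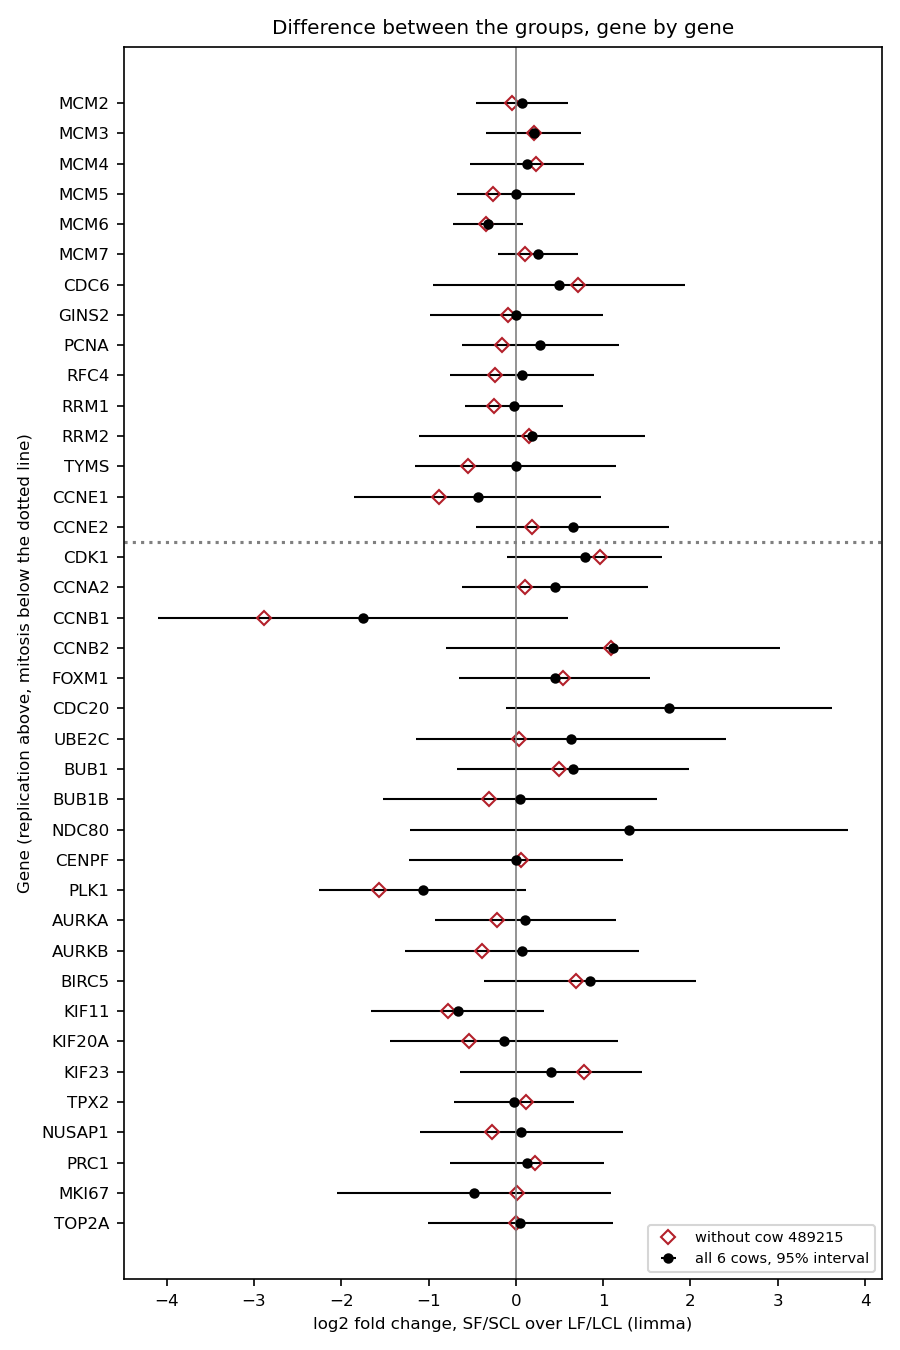
Black points give the limma log2 fold change of SF/SCL over LF/LCL on the log2(normalized count + 1) scale with its 95% interval for each of the 38 genes, and open red diamonds the value without SF/SCL cow 489215. All 38 intervals cover 0, and the diamonds of CCNB1 (-2.89) and PLK1 (-1.56) lie farthest to the left. CDC20 and NDC80 have no diamond because they failed the filter in those 5 cows.

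CCNB1, cyclin B1, the partner of CDK1 at the entry into mitosis, had 2070, 2897 and 4711 normalized counts in cows 617, 79 and 527, and 281, 4395 and 599 in cows 856, 489215 and 97. Cows 856 and 97 were far below all others, and cow 489215 lay inside the LF/LCL range. The mean of LF/LCL was 3226 ± 1351 (SD, n = 3), which was 7.33 times the mean of cows 856 and 97. With all 6 cows the log2 fold change was -1.75 (SE 0.98, 95% interval -4.09 to 0.60, adjusted p = 0.707 in limma). Without cow 489215 it was -2.89 (adjusted p = 0.00821 in limma), and without cow 856 it was -0.91 (adjusted p = 0.735 in limma). With all 6 cows edgeR gave -0.93 and DESeq2 -0.88.

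PLK1, the polo-like kinase that acts at centrosomes and kinetochores, was also low in cows 856 and 97. It had 1522, 1311 and 1664 normalized counts in cows 617, 79 and 527, and 343, 1410 and 742 in cows 856, 489215 and 97. The LF/LCL mean of 1499 ± 178 (SD, n = 3) was 2.76 times the mean of cows 856 and 97, and cow 489215 lay within the LF/LCL range, although with library totals all SF/SCL cows were below it. The log2 fold change was -1.07 (SE 0.50, 95% interval -2.26 to 0.12, adjusted p = 0.630 in limma) with all cows and -1.56 (adjusted p = 0.0202 in limma) without cow 489215, but -0.54 (adjusted p = 0.720 in limma) without cow 856. CCNB1 and PLK1 were the 2 of 36 genes called without cow 489215 (2827 of 15495 genes, or 18.2%), and both were higher in LF/LCL, a direction called in 7.92% of all genes.

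Marker sums of several cell types also set cows 856 and 97 apart. The summed normalized counts of smooth muscle markers, of which 9 of 10 had a row and none was at 0 in all cows, ran from 802186 to 918652 in LF/LCL and were 367298 in cow 856 and 434649 in cow 97, but 1273800 in cow 489215. The LF/LCL mean of that sum was 2.13 times the mean of cows 856 and 97, against 7.33 times for CCNB1 and 2.76 times for PLK1. The sum of 8 fibroblast markers was 105758 to 139672 in LF/LCL, 66914 and 67364 in cows 856 and 97, and 99087 in cow 489215. For endothelial markers, of which 7 of 8 had a row, it was 13364 to 17279 in LF/LCL. Cows 856 and 97 were below that range at 11032 and 11758, and cow 489215 was inside it at 16847. The opposite was seen for 12 ciliated cell markers, 1 of them at 0 in all cows, whose sum was 60237 and 60183 in cows 856 and 97 and 23382 to 31544 in the other 4. The sum of 5 mesothelial markers was 26249 and 26728 in those cows and 2452 to 3483 in the other 4. MSLN and WT1 made up most of it in cows 856 and 97, with 17590 and 18098 normalized counts of MSLN and 8611 and 7984 of WT1. The list did not move as a whole. Without cow 489215, limma called WT1 higher in SF/SCL but LRRN4, another of the 5, higher in LF/LCL. The secretory cell gene OVGP1 was also high in cows 856 and 97, with 271794 and 325158 normalized counts of OVGP1 against 287 to 1950 in the other 4 cows. The sums of other epithelial and of leukocyte markers did not follow this division. The remaining 8 genes of the secretory and general epithelium list summed to 26561 to 41744 in LF/LCL, 46469 in cow 856, 54891 in cow 97 and 67576 in cow 489215. Cows 856 and 97 were thus above the LF/LCL range, but cow 489215 was higher still. Without cow 489215, limma called 3 of 8 tested genes of that list, PAX8, EPCAM and KRT8, all higher in SF/SCL, beside 18.2% of all genes. The leukocyte sum was 5239 to 7238 in LF/LCL and 8629, 4729 and 6244 in cows 856, 489215 and 97. The part of these cell type differences in the CCNB1 and PLK1 results was not tested.

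**Figure D4:**
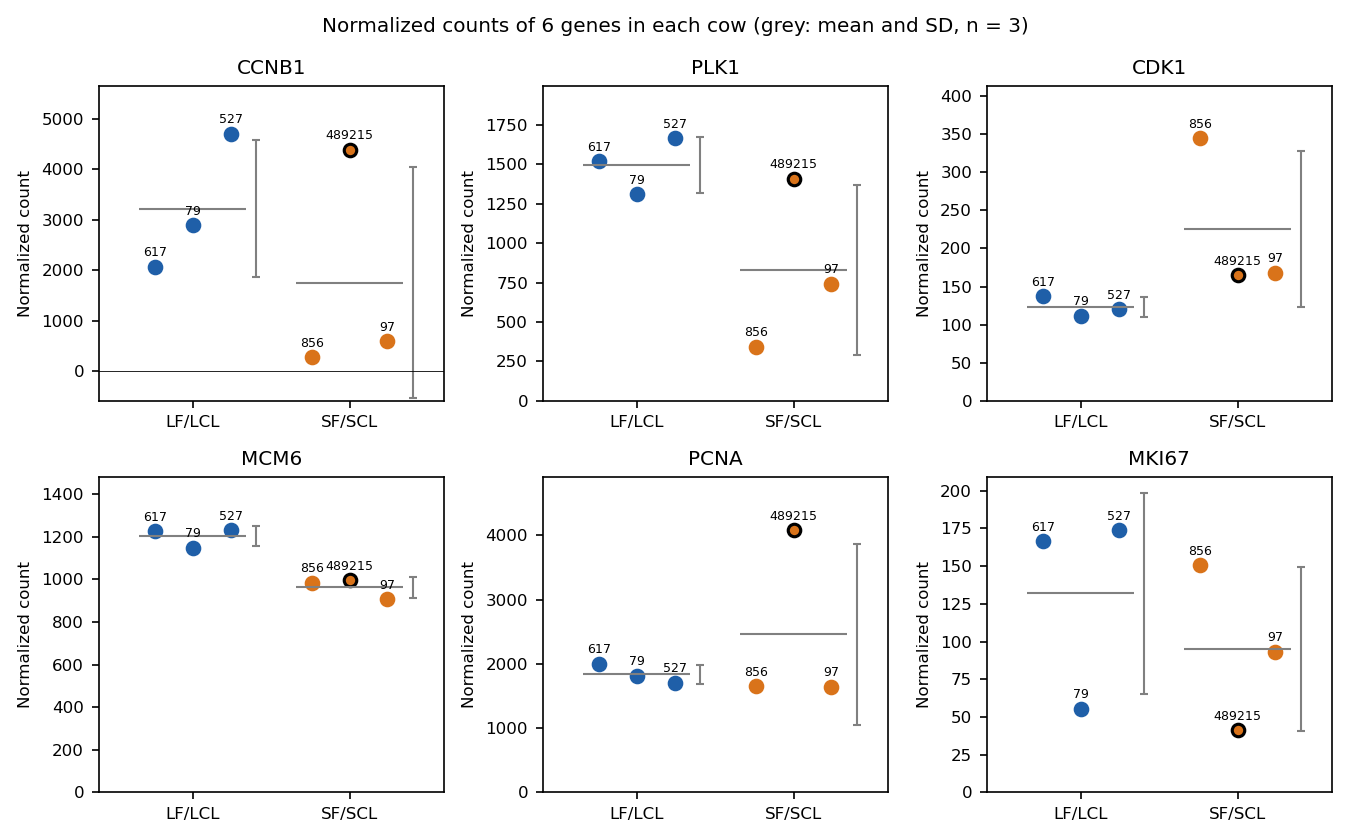
Points give the normalized count (y axis, linear) of CCNB1, PLK1, CDK1, MCM6, PCNA and MKI67 in each cow, labelled by cow number, with LF/LCL in blue, SF/SCL in orange and cow 489215 outlined in black, and grey lines show the mean and SD of 3 cows. For CCNB1 and PLK1 cows 856 and 97 lie below the other 4, for PCNA cow 489215 lies alone above, and for MCM6 and CDK1 the groups do not overlap.

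CDK1, the mitotic kinase itself, had the opposite sign from its partner CCNB1. It had 137, 112 and 120 normalized counts in cows 617, 79 and 527, and 344, 165 and 168 in cows 856, 489215 and 97. All SF/SCL cows were above all LF/LCL cows, as in 9.51% of all genes tested, and cow 856 was the farthest above the LF/LCL range. The means were 123 ± 12.9 and 226 ± 103 (SD, n = 3), and the log2 fold change was 0.79 (SE 0.37, 95% interval -0.10 to 1.68, adjusted p = 0.639 in limma). It was 0.97 (adjusted p = 0.0919 in limma) without cow 489215 and 0.44 (adjusted p = 0.721 in limma) without cow 856, and with library totals the groups overlapped.

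The other mitotic cyclins were lowest in LF/LCL cow 79, which was not low for CCNB1. CCNB2, cyclin B2, had 35.6, 5.63 and 26.4 normalized counts in cows 617, 79 and 527 and 72.9, 41.3 and 20.6 in cows 856, 489215 and 97, with a ratio of SF/SCL to LF/LCL means of 1.99 and a 95% interval of the log2 fold change from -0.80 to 3.03. Its highest cow, 856, was the lowest for CCNB1. CCNA2, cyclin A2, had means of 35.4 ± 7.30 and 51.0 ± 23.2 (SD, n = 3), and FOXM1, a transcription factor of G2 genes, had means of 15.5 ± 1.43 and 22.8 ± 10.4, with cow 97 highest at 34.7.

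CDC20, an activator of the anaphase-promoting complex, had the largest positive fold change of the 38 genes. It had 94.2, 22.5 and 20.2 normalized counts in cows 617, 79 and 527, and 229, 140 and 55.3 in cows 856, 489215 and 97. The groups overlapped, since LF/LCL cow 617 was above SF/SCL cow 97. The means were 45.6 ± 42.1 and 141 ± 86.7 (SD, n = 3), and the log2 fold change was 1.75 (SE 0.78, 95% interval -0.11 to 3.62, adjusted p = 0.611 in limma). UBE2C, the ubiquitin-conjugating enzyme of that complex, had 20.6 to 58.6 normalized counts in LF/LCL and 66.1, 137 and 22.8 in cows 856, 489215 and 97.

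NDC80, a part of the kinetochore that binds microtubules, had 26.2, 1.88 and 13.2 normalized counts in cows 617, 79 and 527, and 63.0, 25.3 and 8.67 in cows 856, 489215 and 97. The value of cow 79 came from 2 reads, with an exact 95% Poisson interval of 0.24 to 7.22 reads, which lay below the interval of 16.2 to 36.9 reads around the 25 reads of cow 617. The log2 fold change of 1.29 (SE 1.04, adjusted p = 0.830 in limma) had a 95% interval from -1.21 to 3.80. The checkpoint kinases BUB1 and BUB1B were lowest of LF/LCL in cow 79, at 22.5 and 30.0, and lowest of SF/SCL in cow 97, at 33.6 and 20.6. CENPF, a large kinetochore protein of G2 and mitosis, had the same lowest cows, at 59.1 and 56.4, with group means of 96.2 ± 34.2 and 101 ± 55.1 (SD, n = 3).

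BIRC5 encodes survivin, which guides AURKB, a kinase of the centromere, while AURKA acts at the spindle poles. BIRC5 had 99.4, 43.2 and 84.3 normalized counts in cows 617, 79 and 527 and 180, 164 and 73.7 in cows 856, 489215 and 97, with a log2 fold change of 0.85 (95% interval -0.36 to 2.07). AURKA had 67.6 to 75.5 normalized counts in LF/LCL and 45.5 to 122 in SF/SCL, and AURKB 25.5 to 47.1 and 18.4 to 65.2. In these genes too the lowest SF/SCL cow was 97, and the groups overlapped.

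Spindle motors and microtubule proteins showed no shared sign. KIF11, the kinesin that pushes the spindle poles apart, had 134, 79.8 and 91.3 normalized counts in cows 617, 79 and 527, and 82.8, 71.9 and 40.1 in cows 856, 489215 and 97, with a log2 fold change of -0.67 (SE 0.42, 95% interval -1.66 to 0.33, adjusted p = 0.748 in limma). Cows 489215 and 97 were below the LF/LCL range and cow 856 was inside it. KIF20A and KIF23, kinesins of the central spindle, had log2 fold changes of -0.13 and 0.40, and TPX2, NUSAP1 and PRC1, which organise or bundle spindle microtubules, had -0.02, 0.06 and 0.13. KIF23 differed from the other motors in that cow 97 was its highest, at 143.

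MKI67, the proliferation antigen that coats mitotic chromosomes, had 166, 55.4 and 174 normalized counts in cows 617, 79 and 527, and 150, 41.3 and 93.2 in cows 856, 489215 and 97. Its lowest cow was 489215, whose mean level over the 23 mitosis genes was the highest with size factors but not with library totals, and LF/LCL cow 79 was next. The log2 fold change was -0.48 (SE 0.65, 95% interval -2.05 to 1.08, adjusted p = 0.892 in limma) and 0.01 without cow 489215. TOP2A, the topoisomerase that untangles chromosomes, had 279, 130 and 170 normalized counts in LF/LCL and 280, 204 and 120 in SF/SCL, with a log2 fold change of 0.05.

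Other genes of the cell cycle were counted by list. Of 46 further replication genes 44 had a row, and their median log2 fold change was 0.12, with 0 called and 4 whose groups did not overlap (18.1% of all genes tested). Of 61 further mitosis genes 50 could be tested, with a median of 0.14, 0 called and 3 not overlapping. The 16 tested genes of G1 cyclins, their kinases and E2F factors had a median of 0.07, and the 17 tested inhibitors and repressors 0.12, again with 0 called in each. At an unadjusted p below 0.05 in limma, the lists held 2 of 44, 2 of 50, 0 of 16 and 1 of 17 genes, beside 8.66% of all genes, so none of the lists held more than genes in general. The genes were ORC3, a subunit of the origin recognition complex (log2 fold change 0.62), CDT1, which loads MCM with CDC6 (1.04), KIF18A, a kinesin of chromosome alignment (1.03), CDC25C, the phosphatase that activates CDK1 (1.93), and CDKN2C, an inhibitor of CDK4 and CDK6 (0.73), none of them past the adjusted threshold. The value of CDC25C rested on few reads. It had 7.33, 0.94 and 7.03 normalized counts in cows 617, 79 and 527, and 27.3, 14.6 and 15.2 in cows 856, 489215 and 97. In cow 79 a single read was worth 0.94.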

How the data were processed

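Whole isthmus RNA from 6 cows was made into poly(A)-selected libraries and sequenced on an Illumina HiSeq. Per the labels and the methods, the authors aligned the reads to the bovine genome with TopHat2 2.0.8 and Bowtie2 2.1.0, used HTSeq to count the reads that mapped to a single place in each Ensembl gene, and divided the counts by DESeq 1.12.1 size factors. The deposited values are thus a signal per gene, counts normalized between libraries but not for gene length. Reads were recovered as whole multiples of the step of each library, and all values came out whole within 0.05. A gene antisense to or overlapping another cannot be separated from it unless strand was used in counting, which is not given in the sources used here.

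Genes whose mean over the 6 libraries exceeded 5 as well as the SD entered limma 3.58.1 (trend, robust) on log2(value + 1), with Benjamini-Hochberg adjustment over all of them and a threshold of 0.05. Alternatives were edgeR 4.0.16 (quasi-likelihood), DESeq2 1.42.0 and limma-voom on the recovered reads, other pseudocounts, filters and scalings, and each cow left out in turn. All tests are two-sided. The steps were tested on simulated data. The members and lists were chosen with earlier results of these data known. Given in full are genes whose groups do not overlap, the gene with the largest absolute fold change in each functional sub-list, PCNA and MKI67. From the other lists, genes are named that had an unadjusted p below 0.05 and groups that did not overlap. No sequences, gene lengths or coordinates are given, and promoters were not searched. A further gene of the cell cycle lists is not reported here.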

Additional observations from a re-analysis of the deposited data

How the results depend on the processing

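No paired analysis was possible because the labels give every cow its own number, which no cow of the other group shares. The alternatives that kept all 6 cows changed no direction or call of the genes given in full. Of all 38 members, the sign changed in 7 with library totals, 4 with edgeR, 4 with DESeq2, 2 with limma-voom, 1 with TMM and 1 with a pseudocount of 5, all genes within 0.075 of 0 on the log2 scale, and DESeq2 gave 30 positive and 8 negative signs. DESeq2 called 416 genes of the whole table. With library totals, where the median of all genes stood at -0.10, the replication level of cow 489215 was 0.12, its mitosis level was also 0.12, the levels of cows 527 (mitosis) and 856 (replication) turned positive, and the median fold change of the replication genes was -0.02. With one cow left out in turn, the genes called ranged from 0 to 2827 over the whole table and from 0 to 2 over the members, and from 0 to 3, 0 to 2, 0 to 2 and 0 to 3 over the further replication, mitosis, G1 and inhibitor lists. Only leaving out SF/SCL cow 489215 gave counts above 0, and the cause was not tested. The members called were CCNB1 (-2.89) and PLK1 (-1.56), and none was called with any other cow left out, over which CCNB1 reached -0.91 and PLK1 -0.54 (without cow 856). CDK1 ranged from 0.44 to 0.97, CDC6 from 0.08 to 0.79, NDC80 from 0.37 to 1.99 and KIF11 from -0.87 to -0.36. The median log2 fold change of the replication genes ranged from -0.09 to 0.22 and that of the mitosis genes from 0.04 to 0.38. PCNA ranged from -0.16 to 0.50 and MKI67 from -1.02 to 0.015, both changing sign without cow 489215, and RRM2 ranged from -0.32 to 0.55, with a change of sign without LF/LCL cow 79 or SF/SCL cow 856. With 3 cows per group and fewer than 100 reads per library in many mitosis genes, modest differences could be missed.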

Other observations

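A row under CDC45L, an older symbol of the CDC45 helicase gene that the rule did not take in, had 115, 128 and 253 normalized counts in cows 617, 79 and 527 and 95.7, 174 and 142 in cows 856, 489215 and 97. The groups overlapped, and the log2 fold change was -0.22.

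Further genes of the cell cycle lists were called by limma only without SF/SCL cow 489215, and they are named here after their values were seen. They were 3 of 44 further replication genes, 2 of 50 further mitosis genes, 2 of 16 genes of the G1 list and 3 of 17 inhibitors and repressors, beside 18.2% of all genes, and none of these shares was above it. KIF2C, a kinesin that takes microtubules apart, had 15.7, 12.2 and 55.3 normalized counts in cows 617, 79 and 527 and 147 and 108 in cows 856 and 97, while cow 489215 lay inside the LF/LCL range. CCND1, cyclin D1 of the G1 phase, had 246, 334 and 263 in LF/LCL, 553 and 704 in cows 856 and 97, and 79.9 in cow 489215. CCND2, cyclin D2, followed the same order, with 252 to 319 in LF/LCL, 434 and 436 in cows 856 and 97, and 126 in cow 489215. In these genes cows 856 and 97 were above all LF/LCL cows, and in both D cyclins cow 489215 was below them. Others were ORC3, ORC6, LIG1, SMC2, CDKN1C and RBL2, of which ORC6 and CDKN1C were lowest in cows 856 and 97 and highest in cow 489215.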
